A study of Mus musculus with 6 samples.

Results

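The IFIT and OAS families are antiviral genes that most mammalian cells switch on in response to interferon. They were described here in TC-1/A9 cells treated with 2 epigenetic agents. The members were Ifit1, Ifit2 and Ifit3 of the first family and Oas1a, Oas1b, Oas1g, Oas2, Oas3, Oasl1 and Oasl2 of the second, 10 genes in all. They were chosen by gene symbol, and every probe that the annotation used here assigns to one of them was taken. That annotation covers probes of the authors' value table, which had already been filtered on detection. This gave 14 probes for 7 of the 10 genes, out of 17445 probes tested for the 9192 genes they stand for. All 14 passed the detection filter, as the source of the annotation made likely. Ifit1, Oas1a and Oas3 are unnamed among these probes, and their levels were not analysed.

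The TC-1/A9 line, from C57BL/6 mice, carries little surface MHC class I. It descends, by way of tumours in immunised hosts, from TC-1, lung cells transformed with HPV16 E6 and E7 and activated Ha-ras. DAC/TSA cells received 5-aza-2'-deoxycytidine (DAC, a DNA methyltransferase inhibitor) at 3 μM for 48 h and then trichostatin A (TSA, a histone deacetylase inhibitor) at 30 ng/ml for a further 24 h, while untreated cells of the same line received neither agent. The 2 agents were given one after the other to the same cells, so their separate effects cannot be told apart, and all 6 arrays come from a single line. RNA of 3 biological replicates per group was hybridised to Illumina bead arrays, 1 array per replicate, and the comparison asks which genes respond to the epigenetic treatment.

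IFIT proteins are built of tetratricopeptide repeats. They bind foreign RNA, such as RNA whose cap lacks the methyl marks of the host, and hold back its translation. OAS proteins are enzymes that bind double-stranded RNA and then join ATP into short oligoadenylates, which act as signals that lead to the cutting of viral and cellular RNA. Both families are classical interferon-stimulated genes: interferon activates the ISGF3 complex, which contains STAT2 and IRF9 and binds the interferon-stimulated response element in their promoters.

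Promoter sequences are shown for 4 members that carried probes past the test, Oas1g and Oasl1 of the OAS family and Ifit2 and Ifit3 of the IFIT family. They come from the RefSeq promoter table of build GRCm38.p6, whose windows run from 250 bases before a gene's start to 50 bases after it. The stretches below are the 200 bases before the start, written 5′ to 3′ on the strand of the gene. Oas1g lies at chr5:120887614-120887813 (minus strand), Oasl1 at chr5:114923040-114923239 (plus), Ifit2 (the first of its 2 windows) at chr19:34550494-34550693 (plus) and Ifit3 at chr19:34583329-34583528 (plus). Capitals mark GAAANNGAAA or its reverse complement, the core letters of the interferon-stimulated response element.
Oas1g: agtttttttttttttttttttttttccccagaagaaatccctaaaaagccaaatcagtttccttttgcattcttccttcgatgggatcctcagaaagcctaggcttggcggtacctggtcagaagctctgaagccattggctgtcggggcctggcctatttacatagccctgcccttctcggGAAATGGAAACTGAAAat
Oasl1: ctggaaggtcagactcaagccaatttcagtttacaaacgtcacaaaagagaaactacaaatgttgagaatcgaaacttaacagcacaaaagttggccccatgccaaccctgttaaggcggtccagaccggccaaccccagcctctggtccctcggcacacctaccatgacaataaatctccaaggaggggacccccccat
Ifit2: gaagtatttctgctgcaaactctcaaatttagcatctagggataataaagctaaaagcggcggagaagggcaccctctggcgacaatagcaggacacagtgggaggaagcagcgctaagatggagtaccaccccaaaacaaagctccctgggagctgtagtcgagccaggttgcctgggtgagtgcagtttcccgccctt
Ifit3: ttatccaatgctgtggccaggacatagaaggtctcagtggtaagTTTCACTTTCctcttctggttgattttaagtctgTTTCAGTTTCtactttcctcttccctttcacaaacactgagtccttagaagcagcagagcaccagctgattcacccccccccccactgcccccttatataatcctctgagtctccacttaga

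The core occurred in both families and was missing from windows in both. With the last base before the start as position -1, Oas1g held 2 overlapping matches, GAAATGGAAA from -18 to -9 and GAAACTGAAA from -12 to -3. Ifit3 held 2 separate matches, TTTCACTTTC from -156 to -147 and TTTCAGTTTC from -122 to -113. The windows of Oasl1 and Oasl2 and the 2 windows of Ifit2 held no match. Among members whose levels were not analysed, Ifit1 and Oas1a had 2 matches each and Oas3 had 1. Windows were found for 8 of the 10 members, all except Oas1b and Oas2. Of all 32851 windows of 300 bases, 3.44% held at least 1 match on either strand and 0.225% held 2 or more. A match is a run of letters and was not tested as a binding site. Only the exact core was searched, and only within these windows, so a window without a match does not show that the element is absent. The number of CpG dinucleotides, the sites of DNA methylation, was 4 in the Oas1g window, 8 in that of Oasl1, 10 and 11 in those of Ifit2 and 1 in that of Ifit3, against a median of 7 over all windows. Methylation of these windows was not analysed here.

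Transcripts of Oasl1, Oas1g and Oas2 were higher in DAC/TSA cells than in untreated cells, and those of Ifit2 and Ifit3 were lower, each on 1 of 2 probes. Of the 10 OAS probes, 6 rose, none fell and 4 did not pass the test, with a median log2 difference (DAC/TSA minus untreated) of 1.32. Of the 4 IFIT probes, none rose, 2 fell and 2 did not pass, with a median log2 difference of -0.54. Thus 8 of the 14 probes passed, where 38.7% of all 17445 probes tested passed (19.3% rose and 19.3% fell) with a median log2 difference of 0.00389. The difference between the families was not itself tested. The test was limma's moderated test on quantile-normalised log2 signals, with Benjamini-Hochberg adjustment over all probes tested and a false discovery rate of 0.01. DAC/TSA and untreated values did not overlap for 10 of the 14 probes, 7 with the DAC/TSA group higher and 3 with it lower. Over all probes tested the groups did not overlap for 59% (29.5% with the DAC/TSA group higher and 29.5% with it lower). The 6 probes that rose belonged to Oasl1, Oas1g and Oas2, and each was higher by more than 2-fold, as were 3.07% of all probes. Members of a family share regulators and sequence, so their probes are not independent of each other.

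**Figure D1:**
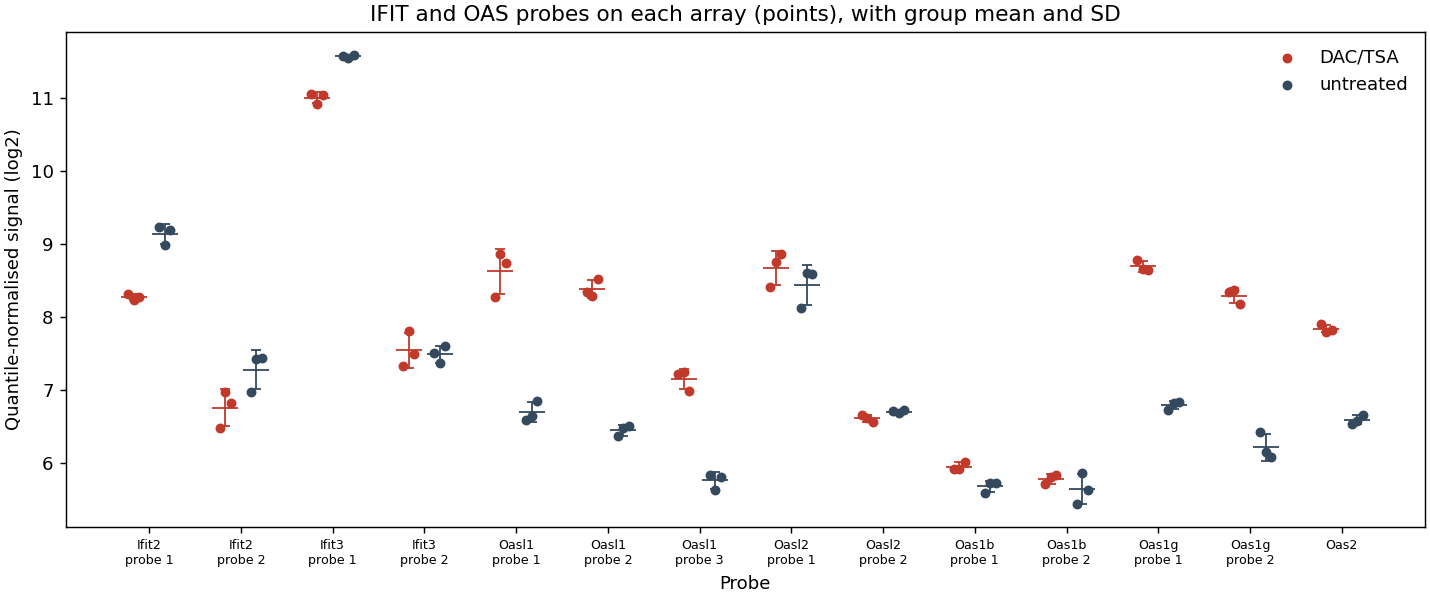
Quantile-normalised log2 signal (vertical axis) of the 14 IFIT and OAS probes on each array, with 3 DAC/TSA arrays (left of each pair, red) and 3 untreated arrays (right, dark blue); lines and bars are the group mean and SD. The Oasl1, Oas1g and Oas2 probes lay higher on every DAC/TSA array, while Ifit2 probe 1 and Ifit3 probe 1 lay lower.

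Oas1g encodes an active oligoadenylate synthetase and belongs to a cluster of near-identical Oas1 genes. Its first probe (ILMN_1253808) read 8.78, 8.65 and 8.65 log2 on the DAC/TSA arrays, against 6.73, 6.83 and 6.83 on the untreated arrays. Its second probe (ILMN_2628822) read 8.34, 8.37 and 8.17 log2 on the DAC/TSA arrays, against 6.42, 6.15 and 6.08 on the untreated arrays. Every DAC/TSA array lay above every untreated array on both probes, with a wide gap. The first probe was 3.73-fold higher (95% confidence interval 3.29 to 4.23, limma adjusted p = 6.85e-08). The second was 4.22-fold higher (3.58 to 4.97, adjusted p = 2.17e-07), and 0.413% of all probes had a greater difference. Untreated signals of the second probe lay near the detection floor of those arrays (5.83 to 5.84 log2). With neqc background correction its log2 difference was 2.55, against 2.08 without. The probe sequences were not used here, so signal from other Oas1 genes, such as the unnamed Oas1a, cannot be separated from that of Oas1g.

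Oasl1 encodes a synthetase-like protein without enzyme activity, known in the mouse as a brake on translation of the interferon regulator Irf7. Its 3 probes all rose. The first (ILMN_2793464) read 8.28, 8.86 and 8.74 log2 on the DAC/TSA arrays, against 6.59, 6.65 and 6.85 on the untreated arrays. The second (ILMN_2717366) read 8.34, 8.29 and 8.53 log2 on the DAC/TSA arrays, against 6.36, 6.48 and 6.50 on the untreated arrays. DAC/TSA array 1 was the lowest of its group on the first probe but not on the second, and the groups stayed far apart on both. The fold was 3.81 for the first probe (3.06 to 4.75, adjusted p = 2.44e-06) and 3.82 for the second (3.32 to 4.40, adjusted p = 1.27e-07). The third probe (ILMN_2722380) read 7.22, 7.25 and 6.99 log2 on the DAC/TSA arrays, against 5.84, 5.63 and 5.81 on the untreated arrays, where only 1 of 3 arrays detected it. It was 2.62-fold higher (2.25 to 3.05, adjusted p = 1.88e-06), a difference measured against untreated signals near the detection floor, which lay between 5.83 and 5.84 log2 on the untreated arrays. With neqc background correction its log2 difference was 1.98, against 1.39 without.

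Oas2 encodes a further synthetase of the family. Its single probe (ILMN_2670150) read 7.90, 7.80 and 7.83 log2 on the DAC/TSA arrays, against 6.54, 6.58 and 6.66 on the untreated arrays. The values were tight within each group and did not overlap. The probe was 2.38-fold higher (2.10 to 2.69, adjusted p = 8.91e-07), and 1.71% of all probes had a greater difference.

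Oasl2, which in the mouse keeps synthetase activity, lies beside Oasl1, and neither of its 2 probes passed the test. Its first probe (ILMN_2954868) read 8.42, 8.76 and 8.86 log2 on the DAC/TSA arrays, against 8.13, 8.60 and 8.59 on the untreated arrays. The groups overlapped, and in each group the array numbered 1 was the lowest. The log2 difference was 0.24 (95% confidence interval -0.10 to 0.57, adjusted p = 0.211), and between same-numbered arrays it was 0.29, 0.15 and 0.27. The second probe (ILMN_2599154) read 6.66, 6.62 and 6.56 log2 on the DAC/TSA arrays, against 6.71, 6.68 and 6.73 on the untreated arrays. These differed by -0.09 (-0.26 to 0.08, adjusted p = 0.342), a log2 difference whose interval holds the 0 of no change and whose sign turned to 0.01 with median scaling. The upper bounds of 0.57 and 0.08 lie below the lower bounds of the 3 Oasl1 probes, which run from 1.17 to 1.73, and the difference between the genes was not itself tested.

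Oas1b, the gene behind resistance to flaviviruses in wild mice, carries a premature stop in C57BL/6 and most laboratory strains. Its signals lay at the edge of detection. The first probe (ILMN_2823462) read 5.91, 5.92 and 6.02 log2 on the DAC/TSA arrays, against 5.59, 5.73 and 5.72 on the untreated arrays. It was detected on all 3 DAC/TSA arrays and on none of the untreated arrays. The detection floor was lower on the DAC/TSA arrays (5.73 to 5.80 log2) than on the untreated arrays (5.83 to 5.84). The probe lay, by its DAC/TSA mean, 1.09-fold above the floor of the untreated arrays, a value without an interval. Its log2 difference of 0.27 did not pass (SE 0.08, adjusted p = 0.0176), and it passed when the replicate number was entered as a block (adjusted p = 0.00508), a setting in which 51.6% of all probes passed in place of 38.7%. The second probe (ILMN_2613140) read 5.71, 5.81 and 5.83 log2 on the DAC/TSA arrays, against 5.45, 5.86 and 5.62 on the untreated arrays. It was detected on 2 DAC/TSA arrays and 1 untreated array, the groups overlapped, and the log2 difference was 0.14 (-0.10 to 0.38, adjusted p = 0.313).

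**Figure D2:**
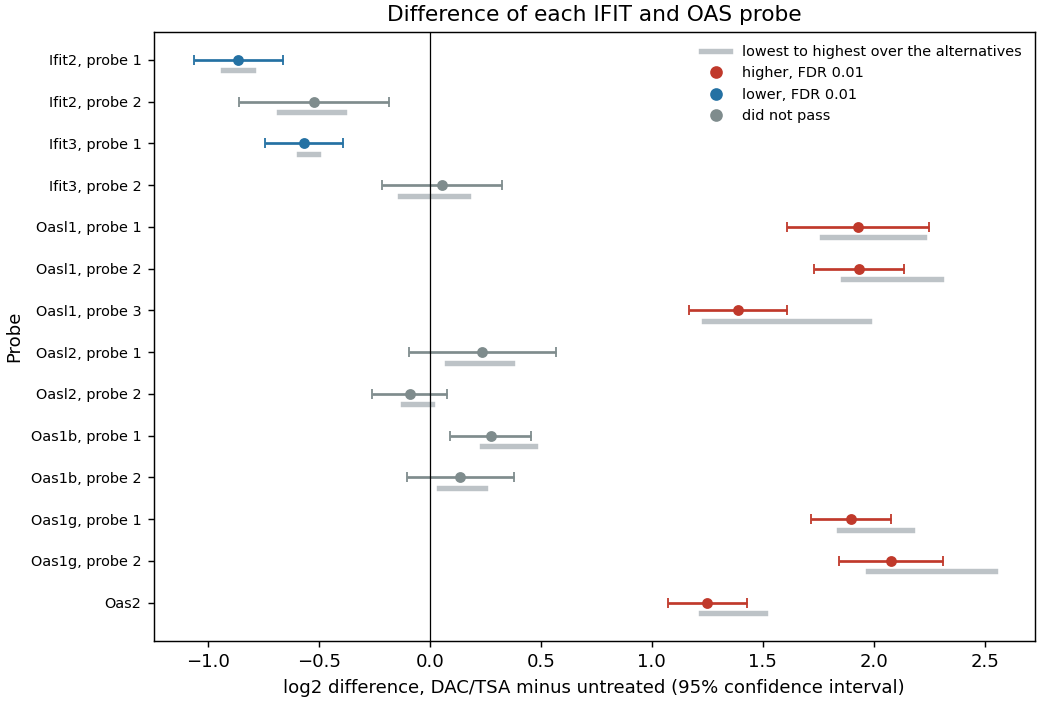
Log2 difference (DAC/TSA minus untreated, horizontal axis) of each IFIT and OAS probe with its 95% confidence interval, coloured by the call at a false discovery rate of 0.01; the grey bar below each gives the range over the alternative settings. The 6 probes that rose lay between 1.25 and 2.08, and the 2 that fell at -0.86 and -0.57.

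Ifit2, which binds AU-rich RNA and the translation factor eIF3, fell on 1 of 2 probes. Its first probe (ILMN_2981167) read 8.32, 8.23 and 8.27 log2 on the DAC/TSA arrays, against 9.24, 8.99 and 9.19 on the untreated arrays. All DAC/TSA arrays lay below all untreated arrays. The probe was 1.82-fold lower (1.58 to 2.09, limma adjusted p = 2.45e-05), and 10.3% of all probes fell by at least 1.5-fold. The second probe (ILMN_2981169) read 6.48, 6.97 and 6.82 log2 on the DAC/TSA arrays, against 6.97, 7.43 and 7.44 on the untreated arrays. The arrays numbered 1 were the lowest of both groups, and the groups overlapped by the DAC/TSA array 2 value. Its log2 difference was -0.52 (-0.86 to -0.18, adjusted p = 0.0150), which did not pass. Between same-numbered arrays the differences were -0.49, -0.45 and -0.62, and with the replicate number as a block, where 51.6% of all probes passed, the probe was past the threshold (adjusted p = 7.19e-05). Without untreated array 1 the log2 difference was -0.68 (adjusted p = 0.000819).

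Ifit3, which in humans stabilises the RNA-binding IFIT complex, gave 2 probes that disagreed. The first (ILMN_2944666) read 11.06, 10.92 and 11.04 log2 on the DAC/TSA arrays, against 11.57, 11.55 and 11.59 on the untreated arrays. The groups did not overlap, and the untreated values were nearly the same. This probe was 1.48-fold lower (1.31 to 1.67, adjusted p = 0.00018). The second probe (ILMN_1230458) read 7.33, 7.81 and 7.49 log2 on the DAC/TSA arrays, against 7.50, 7.36 and 7.60 on the untreated arrays. Here the groups overlapped and the log2 difference was 0.06 (-0.22 to 0.33, adjusted p = 0.728), with DAC/TSA array 2 the highest of the 6. Without that array the difference was -0.07 (adjusted p = 0.610). Under median scaling the fall of the first probe did not pass (log2 difference -0.50, adjusted p = 0.0216), and the mean of both probes did not pass (-0.26, adjusted p = 0.0140). Ifit3 has a near-identical copy, Ifit3b, and signal from it cannot be separated from that of Ifit3 here.

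**Figure D3:**
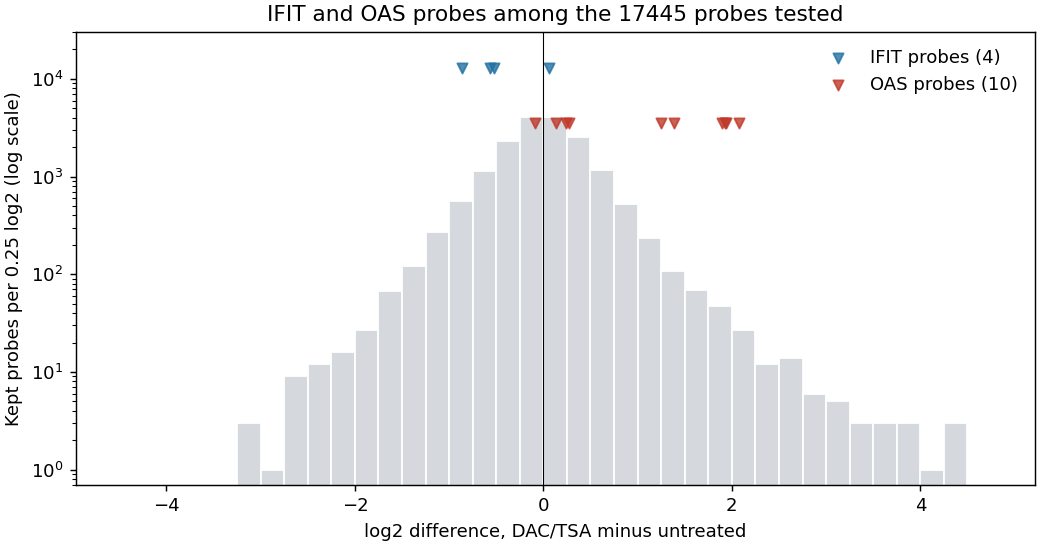
Distribution of the log2 difference (DAC/TSA minus untreated, horizontal axis) over the 17445 probes tested, in bins of 0.25 log2 on a logarithmic count axis, with the 4 IFIT probes (upper triangles, blue) and 10 OAS probes (lower triangles, red). The 6 OAS probes that rose lay in the right tail, from 1.25 to 2.08, and 3 of the 4 IFIT probes lay left of 0.

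The members lie in 3 gene clusters, the Ifit genes on chromosome 19 and the Oasl and Oas1 to Oas3 clusters on chromosome 5. The nearest 4 measured genes on each side of each cluster, taken by position alone, moved both ways. Of these 24 neighbours, 10 rose, 5 fell and 9 did not pass, where 43.9% of all genes passed (22.5% rose and 21.4% fell). Beside the Ifit cluster, 4 of 8 neighbours rose, among them the death receptor Fas (log2 difference 1.06, adjusted p = 2.85e-05) and the muscle ankyrin repeat gene Ankrd1 (1.63, adjusted p = 1.28e-07), and 2 fell, among them the smooth muscle actin Acta2 (-2.70, adjusted p = 1.59e-08). Beside the Oasl cluster 3 rose and 2 fell, and beside the Oas1 to Oas3 cluster 3 rose and 1 fell. The neighbours named are those with the largest differences and were picked after their values were seen.

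The genes whose pattern came closest to a member were found by the Euclidean distance over the 6 arrays between log2 differences from the untreated mean, among 7615 genes detected on every array. For Oas1g (second probe, the largest increase) they were the synaptic vesicle gene Syn1 at a distance of 0.23, the interferon-inducible chemokine Cxcl10 at 0.28 and the macrophage metal transporter Slc11a1 at 0.30. For Ifit2 (first probe, the largest decrease) they were Stimate at 0.12, the lipoprotein receptor Lrp8 and the transcription repressor Bcl6b, both at 0.13. With 6 arrays in 2 groups this likeness is mainly a like size of difference.

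In the list for the oligoadenylate arm, through which OAS enzymes act, 3 of 5 listed genes were measured. Pde12, which degrades oligoadenylates, rose (log2 difference 0.42, SE 0.09, adjusted p = 0.00351), and the other 2 did not pass. For IFIT-linked translation, 6 of 9 listed genes were measured, of which 2 rose and none fell, where 43.9% of all genes passed. Both were modest: the cap methyltransferase Cmtr1, whose product marks host caps as self, had a log2 difference of 0.46 (adjusted p = 0.000877), and the translation factor subunit Eif3b had 0.39 (adjusted p = 0.00222). The median log2 difference was 0.07 in the first list and 0.14 in the second, against 0.01 over all genes.

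Among the 8 measured of 12 listed genes of double-stranded RNA sensing, 1 rose and 3 fell, with a median log2 difference of -0.10. The share that passed, 4 of 8, was near the 43.9% of all genes. Eif2ak2, the kinase PKR that halts translation on double-stranded RNA, rose by 0.43 log2 (SE 0.09, adjusted p = 0.00261). The kinase Ikbke, which activates interferon regulatory factors, fell by 0.66 log2 (adjusted p = 0.000271), the RNA editor Adar by 0.49 (adjusted p = 0.000797) and the ubiquitin ligase Trim25 by 0.48 (adjusted p = 0.00147). The sensors Rigi and Ifih1 are unnamed here. Adar carried 4 probes and 1 of them passed. Zbp1, named after its values were seen, did not pass on its brightest probe. Its other probe, detected on no untreated array, rose by 0.36 log2 (adjusted p = 0.00523).

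Of 18 genes listed for type I interferon input, 9 were measured, of which 3 rose, 2 fell and 4 did not pass, near the shares over all genes (22.5% rose and 21.4% fell). Usp18, which strips Isg15 from proteins and damps the interferon receptor, read 11.18, 11.13 and 11.17 log2 on the DAC/TSA arrays, against 10.52, 10.56 and 10.53 on the untreated arrays. It was 1.54-fold higher (1.37 to 1.73, adjusted p = 6.57e-05) and its groups did not overlap. Ptpn2, a phosphatase of JAK and STAT proteins, rose by 0.43 log2 (adjusted p = 0.00371), and Irf3, a factor that drives the interferon beta gene, by 0.34 (adjusted p = 0.00729) on 1 of its 3 probes. The receptor kinase Tyk2 fell on all 3 of its probes, by 1.05 log2 on the brightest (adjusted p = 1.31e-05). Stat2, the ISGF3 subunit that binds IRF9, read 6.66, 6.70 and 6.68 log2 on the DAC/TSA arrays, against 7.15, 7.18 and 7.33 on the untreated arrays, and was 1.46-fold lower (1.28 to 1.65, adjusted p = 0.000326). The ISGF3 subunit Irf9 had a log2 difference of 0.05 (adjusted p = 0.657) and Irf7 one of 0.00 (SE 0.08, adjusted p = 0.975). Ifnb1, the interferon beta gene, named after its value was seen, had a log2 difference of 0.30 that did not pass (adjusted p = 0.0120). It passed with the replicate number as a block (adjusted p = 0.0025), where 51.6% of all probes passed. Its untreated signals of 6.17, 5.97 and 6.04 log2 lay near the detection floor of those arrays (5.83 to 5.84).

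Of 23 other antiviral effectors listed, 15 were measured, of which 4 rose, 4 fell and 7 did not pass, with a median log2 difference of 0.04. These counts were near the shares over all genes, of which 22.5% rose and 21.4% fell. Rsad2, which encodes the antiviral radical enzyme viperin, read 9.04, 8.91 and 8.88 log2 on the DAC/TSA arrays, against 7.19, 6.98 and 6.90 on the untreated arrays. It was 3.79-fold higher (3.27 to 4.39, adjusted p = 1.9e-07), a fold within the range of the Oasl1 and Oas1g probes. Isg15, a ubiquitin-like protein joined to others in the interferon response, read 11.04, 11.14 and 11.24 log2 on the DAC/TSA arrays, against 10.24, 10.23 and 10.28 on the untreated arrays, and was 1.86-fold higher (1.64 to 2.11, adjusted p = 1.08e-05). Ifi27 rose by 0.53 log2 (adjusted p = 0.000203), and the fourth was Eif2ak2, which stands in 2 lists. The fusion-blocking membrane proteins Ifitm2 (-0.75, adjusted p = 4.17e-05), Ifitm1 (-0.32, adjusted p = 0.00876) and Ifitm3 (-0.29, adjusted p = 0.00888) and the receptor transporter Rtp4 (-0.42, adjusted p = 0.00156) fell, these values being log2 differences. A second, dimmer Ifitm1 probe differed by -2.05 log2 (adjusted p = 4.31e-08), so the probes disagree on the size of the fall. With the replicate number as a block 7 of these genes rose in place of 4 and 5 fell in place of 4. The added fall was Parp14 (-0.28, blocked adjusted p = 0.0034), and the 3 added rises were Bst2, Samhd1 (whose other probe fell) and Ifi35, all named for this after their values were seen. Bst2, a tether of budding virus, read 10.09, 8.87 and 8.84 log2 on the DAC/TSA arrays, against 8.98, 7.92 and 7.95 on the untreated arrays. The arrays numbered 1 stood above the others of both groups, so the groups overlapped and the probe did not pass without the block (adjusted p = 0.0344). Between same-numbered arrays the log2 differences were 1.11, 0.95 and 0.89 (blocked adjusted p = 7.34e-07). Mx1 is unnamed here.

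Counts in these lists moved with the processing. The 5 lists together held 10 genes that rose and 9 that fell. With median scaling 4 rose (Rsad2, Isg15, Usp18 and Eif2ak2) and 1 fell (Tyk2), and without DAC/TSA array 3, untreated array 2 or untreated array 3 the number that rose was 6. Without untreated array 2 or 3, Eif2ak2 did not pass and the sensing list held no gene that rose, and Pde12 did not pass when any one of DAC/TSA arrays 1 and 3 and untreated arrays 2 and 3 was left out. The effector list held 2 genes that fell, in place of 4, without DAC/TSA array 1 or 3 or untreated array 2 or 3, and 1 without DAC/TSA array 2. The interferon input list held 1 gene that rose, in place of 3, without DAC/TSA array 2 or 3 or untreated array 2 or 3, and the translation list 1, in place of 2, without DAC/TSA array 2 or 3 or untreated array 2.

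**Figure D4:**
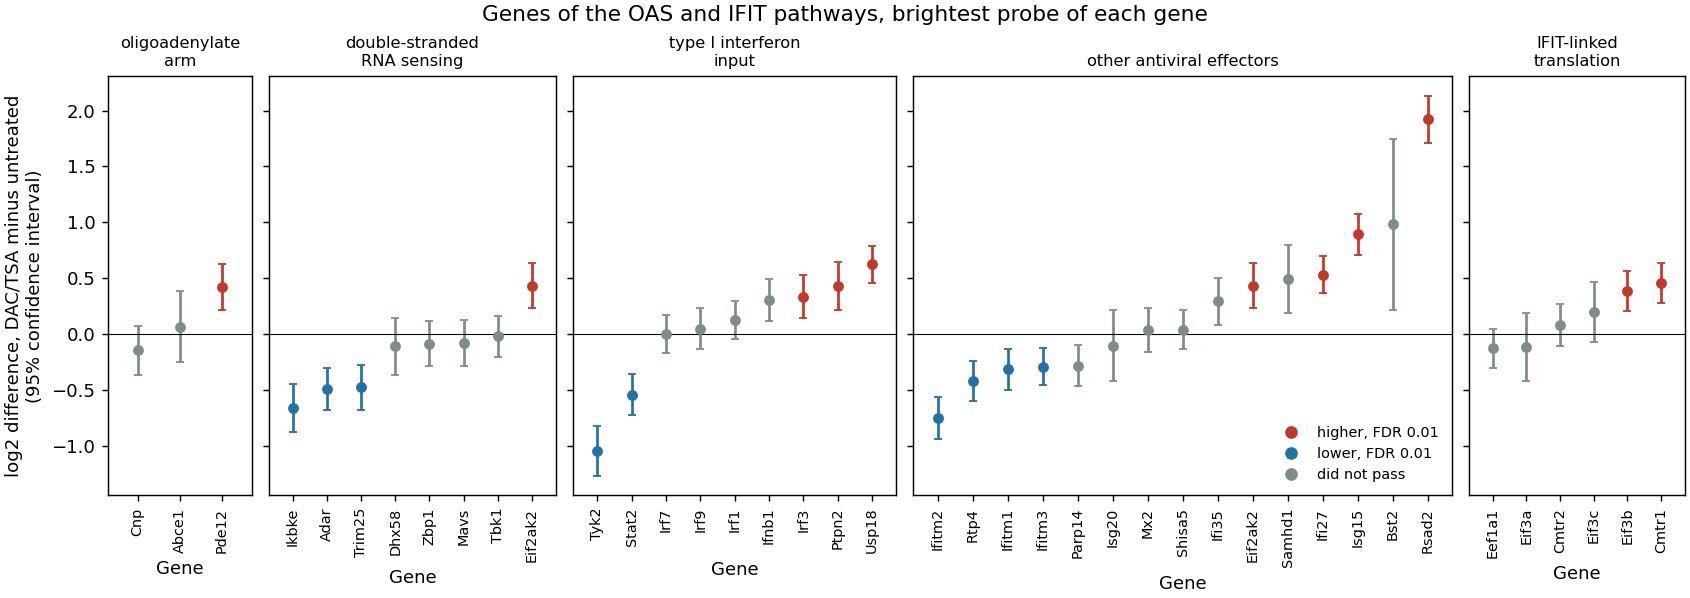
Log2 difference (DAC/TSA minus untreated, vertical axis) of the brightest probe of each measured gene in 5 lists of genes linked to the OAS and IFIT families, with 95% confidence intervals; colours give the call at a false discovery rate of 0.01. Rsad2 lay highest at 1.92 and Tyk2 lowest at -1.05, and each list held genes near 0.

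The numbers of detected probes were 15008, 15783 and 15513 on the DAC/TSA arrays and 14704, 14802 and 14741 on the untreated arrays, of 45281, and arrays of a group correlated at r = 0.992 or above. Marker lists of immune, epithelial and mesenchymal cells moved with the treatment, where 22.5% of all genes rose and 21.4% fell. Of 6 measured immune cell markers of 24 listed, 5 rose and 1 fell, and 3 were undetected in untreated cells. The 1 that fell, Cd79b, was detected on all 3 untreated arrays and on no DAC/TSA array (log2 difference -1.33). Summed signals were 506 to 534 on the DAC/TSA arrays and 346 to 364 on the untreated arrays. Sums of this kind include background signal, as no background correction was made. Ptprc, Cd3e and Itgam are unnamed here. Of 7 measured pan-epithelial markers of 9 listed, 6 rose (summed signal 2270 to 2366 in DAC/TSA cells and 347 to 373 in untreated cells), and 4 were undetected in untreated cells. Cldn6 was the brightest of these 7 markers in DAC/TSA cells (mean 10.42 log2) and weighs most in that sum. Of 3 measured lung epithelial markers of 12 listed, 2 rose (1178 to 1273 in DAC/TSA cells and 486 to 533 in untreated cells). Of these 3, 1 was undetected in untreated cells, and Sftpc and Nkx2-1 are unnamed. Aqp5 was the brightest of the 3 in DAC/TSA cells (mean 9.86 log2) and weighs most in that sum. All 10 measured mesenchymal markers of 12 listed fell on their brightest probes (13744 to 14487 in DAC/TSA cells and 27190 to 27926 in untreated cells), and 1 was undetected in DAC/TSA cells. The other Fn1 probes did not pass (log2 differences -0.21 and -0.11, limma adjusted p = 0.232 and 0.441). The part of these marker lists in the IFIT and OAS differences was not tested. In bulk RNA, fewer cells of a kind and less RNA per cell cannot be told apart.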

How the data were processed

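Total RNA of TC-1/A9 cells, 3 DAC/TSA-treated and 3 untreated biological replicates, had been hybridised to Illumina Mouse WG-6 arrays. The authors extracted signals with BeadStudio version 2. Linear, unnormalised signal intensity was deposited for every probe, with a deposited detection p-value beside it. The authors also gave a log2 table, quantile-normalised with lumi and limma, used here only as an alternative; package versions: not given in the sources used here.

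Groups were taken from the sample labels. Intensities, with no background correction, were quantile-normalised between arrays and log2-transformed. Probes whose detection p exceeded 0.01 on all arrays were dropped, which left 17445 of 45281. Groups were compared with limma 3.58.1 in R 4.3.3 (lmFit, eBayes, two-sided) over all kept probes, with Benjamini-Hochberg adjustment and a false discovery rate of 0.01. Errors of differences are standard errors of this fit, and intervals are at 95%. In gene lists a gene was represented by its brightest kept probe, the one with the highest mean over 6 arrays. Of the kept probes, 13943 carried 1 symbol, 7 several and 3495 none; symbols were updated through Entrez identifiers. For a probe below detection on all arrays of a group, the mean of the other group was set against the detection floor. The number of arrays limits the precision. The fit was tested on simulated data. Figures were drawn with matplotlib 3.10.9.

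The text names every member probe, pathway genes past the threshold, a set of pathway genes whatever their value, and the 3 genes nearest in pattern to the strongest rise and fall. Members and lists were chosen with earlier results of these data known.

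The labels give both groups the numbers 1 to 3. Across the kept probes, deviations from the group means of same-numbered arrays correlated at 0.63, 0.24 and 0.36. All lay above 0.1, but the main fit did not pair the arrays by number. DAC/TSA array 3 with untreated array 2 (0.37) and DAC/TSA array 2 with untreated array 3 (0.38) correlated about as well. A fit blocked on the number was an alternative, as were median scaling, neqc background correction, other detection filters, the authors' log2 values, an intensity trend, the mean of a gene's probes, a threshold of 0.05 and leaving out arrays.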

Additional observations from a re-analysis of the deposited data

How the results depend on the processing

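The 6 probes of Oasl1, Oas1g and Oas2 that rose and the first Ifit2 probe kept their direction and call under each of the 17 alternatives run on single probes. The Oas1g second probe ranged from 1.98 to 2.55 log2 and the first Ifit2 probe from -0.93 to -0.80. Median scaling, which moved the median log2 difference of all probes to 0.0775, left 1964 probes higher and 1279 lower of those tested (60.6% of calls higher, against 50% with quantile normalisation, 3371 higher and 3374 lower). With it 1 member probe fell in place of 2, 4 pathway genes rose in place of 10 and 1 fell in place of 9, and the second Oasl2 probe turned to 0.0082; the cause was not tested. The 4 that still rose were Rsad2, Isg15, Usp18 and Eif2ak2, and Tyk2 still fell.

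Leaving out arrays, singly or by number, gave 1779 to 4143 probes higher and 1843 to 3980 lower in all, with the lowest counts without both arrays numbered 2. Member probes higher stayed at 6, and member probes lower ran from 2 to 3. With single arrays left out, 6 to 12 pathway genes rose and 6 to 9 fell. The second Ifit3 probe turned to -0.07 without DAC/TSA array 2, -0.01 without untreated array 2 and -0.13 without both, in a range of -0.13 to 0.17. The second Ifit2 probe passed when untreated array 1 was left out (-0.68), when both arrays numbered 1 were (-0.55), and at a threshold of 0.05. The first Oas1b probe passed with neqc (0.47, adjusted p = 0.00614) and at 0.05.

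With the replicate number as a block, 51.6% of all probes passed in place of 38.7% (4604 higher and 4395 lower), and 7 member probes rose and 3 fell, the second Ifit2 probe (-0.52) and the first Oas1b probe (0.27) being added. The block changed no other member call. With 3 arrays a group, and signals of Oas1b at the detection limit, small differences of dim probes may not be detectable.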
